A study of Mus musculus with 4 samples.

Results

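Stretches of the mouse genome that carried called RNA polymerase II (Pol II) regions in the kidney and in the lung, and none in the heart or the liver, numbered 5276 of 152542. Called regions of the 4 organs that overlapped by at least 1 bp on chromosomes 1 to 19 and X were joined into linked regions. A linked region was kept when it held kidney and lung regions, no heart or liver region, and no single region of 10000 bp or more. The set was therefore chosen by calls in the kidney and lung lists, their absence from the other lists and region length, and its tag counts are given as a description. The kept regions, called kidney-lung regions here, held 5506 kidney regions (6.24% of the kidney list) and 5553 lung regions (5.50% of the lung list).

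Chromatin from flash-frozen kidney, lung, heart and liver of 2 C57BL/6 mice was immunoprecipitated with the 4H8 antibody against the C-terminal domain of Pol II and sequenced. PIXUL, an instrument that shears chromatin by ultrasound in multiwell plates, was used. All groups were whole organs of the same strain with no treatment named, so the labels separate them by organ alone, and no source used here says whether a list pools both mice or gives their age and sex. With 1 list per organ there is no replicate error, no difference was tested, and no control library was named in the recorded call.

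Pol II transcribes protein-coding genes and many noncoding ones, and an antibody to its C-terminal domain recovers polymerase paused near starts, moving through gene bodies and held at enhancers. Kidney tubules and lung airways and alveoli are both branching epithelia, joined by tight junctions and built to move salt, water and acid across a polarised cell layer, whereas heart is mostly muscle and liver mostly hepatocytes. Whole organs were used, so more cells of a type and more polymerase per cell cannot be told apart.

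The lists fitted their organ labels. Of 20 genes that mark the proximal tubule of the kidney, 18 had at least 50% of their span inside kidney regions and 0 inside lung regions, where 21.4% of all 21627 protein-coding genes reached that level in kidney and 15.3% in lung. Of 20 genes that mark alveolar and airway epithelium, 4 reached it in kidney and 16 in lung. Of 20 hepatocyte genes, 2 reached it in kidney and 1 in lung, and of 20 cardiomyocyte genes 1 did in each. The organs also hold tubule, airway, blood vessel, stroma and blood cells in proportions that were not measured.

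Depth differed between the lists and bears on every absence. The kidney list rested on 16589890.5 tags, lung on 13296938, heart on 9880184 and liver on 20058183. Divided by the 500 bp window, the tag threshold recorded by the caller came to 14.5 tags per kb in kidney, 16.5 in lung, 18.2 in heart and 14.0 in liver, each per 10000000 tags. It is not a floor on the density of a listed region, since 13.5% of kidney regions, 34.3% of lung, 17.8% of heart and 23.3% of liver regions lay below the value of their own list. Only 549 kidney-lung regions (10.4%) were at or above the heart threshold in both kidney and lung, while 4619 were at or above the liver threshold. For the rest, absence from the heart list and the lower depth of that list cannot be told apart, and the 549 are a description, not a set free of this limit. A heart or liver region lay within 5 kb of 3497 kidney-lung regions (66.3%), a heart region for 2805 and a liver region for 2241, so many lie beside polymerase called in another organ.

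Promoters are shown first, because they tie the set to named genes. Among the promoters that RefSeq places on GRCm38.p6, the assembly of the mm10 build used by the authors, 81 promoters of 76 genes held bases covered by both a kidney and a lung region of the set. Each promoter here runs from 250 bases before to 50 bases after the annotated start. Of these genes, 7 were chosen after their values were seen, to show a high and even signal (Cpm, Sorl1), transport and adhesion genes of epithelia (Scnn1b, Itgb6, Ap1m2), a lung secretory gene (Sfta2) and a cilium gene (Ttc30a2). Sequences run 5′ to 3′ on the gene's strand, and capitals mark matches to the motifs listed after them.
Cpm promoter, chr10:117629250-117629549, plus strand: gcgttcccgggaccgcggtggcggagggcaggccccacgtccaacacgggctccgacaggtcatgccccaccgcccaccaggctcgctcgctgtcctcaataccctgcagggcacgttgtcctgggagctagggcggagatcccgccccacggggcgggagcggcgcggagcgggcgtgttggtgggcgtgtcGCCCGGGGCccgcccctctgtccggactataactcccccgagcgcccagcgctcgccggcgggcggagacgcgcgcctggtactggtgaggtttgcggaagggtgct
Sorl1 promoter, chr9:42124248-42124547, minus strand: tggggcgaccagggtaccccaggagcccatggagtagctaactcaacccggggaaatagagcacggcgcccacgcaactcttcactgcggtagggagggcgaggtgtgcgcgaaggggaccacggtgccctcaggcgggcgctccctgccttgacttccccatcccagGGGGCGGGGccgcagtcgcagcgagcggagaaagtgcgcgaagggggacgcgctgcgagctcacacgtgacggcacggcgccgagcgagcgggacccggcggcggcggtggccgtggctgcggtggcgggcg
Sfta2 promoter, chr17:35649458-35649757, plus strand: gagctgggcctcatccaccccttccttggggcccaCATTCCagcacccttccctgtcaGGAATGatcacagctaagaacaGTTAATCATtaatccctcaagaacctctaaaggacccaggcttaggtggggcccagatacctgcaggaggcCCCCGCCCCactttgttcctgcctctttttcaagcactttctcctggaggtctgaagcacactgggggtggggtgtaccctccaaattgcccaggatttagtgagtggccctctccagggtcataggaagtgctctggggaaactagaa
Ttc30a2 promoter, chr2:75978130-75978429, minus strand: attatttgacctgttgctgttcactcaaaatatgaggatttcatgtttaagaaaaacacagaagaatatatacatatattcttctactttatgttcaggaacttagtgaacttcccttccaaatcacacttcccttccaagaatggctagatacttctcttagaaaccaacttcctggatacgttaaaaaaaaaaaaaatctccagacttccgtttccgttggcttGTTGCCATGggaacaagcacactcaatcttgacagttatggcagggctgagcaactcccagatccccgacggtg
Itgb6 promoter, chr2:60673644-60673943, minus strand: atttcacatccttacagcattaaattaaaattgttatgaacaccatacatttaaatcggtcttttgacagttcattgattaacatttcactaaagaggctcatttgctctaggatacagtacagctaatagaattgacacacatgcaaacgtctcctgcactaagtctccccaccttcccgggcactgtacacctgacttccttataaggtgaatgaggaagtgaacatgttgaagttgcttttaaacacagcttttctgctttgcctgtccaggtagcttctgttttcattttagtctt
Scnn1b promoter, chr7:121864788-121865087, plus strand: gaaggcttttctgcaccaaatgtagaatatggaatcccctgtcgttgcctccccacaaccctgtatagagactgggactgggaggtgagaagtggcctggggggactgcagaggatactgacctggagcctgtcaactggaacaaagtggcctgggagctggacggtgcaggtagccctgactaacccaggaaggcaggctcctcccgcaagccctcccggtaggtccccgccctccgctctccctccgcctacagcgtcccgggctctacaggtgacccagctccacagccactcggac
Ap1m2 promoter, chr9:21312284-21312583, minus strand: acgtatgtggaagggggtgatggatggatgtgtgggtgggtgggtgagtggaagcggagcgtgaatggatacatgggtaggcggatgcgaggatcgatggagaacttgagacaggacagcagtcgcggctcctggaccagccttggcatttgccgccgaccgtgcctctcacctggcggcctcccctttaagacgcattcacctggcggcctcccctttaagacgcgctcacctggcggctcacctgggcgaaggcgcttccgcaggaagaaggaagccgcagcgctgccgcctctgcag

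On either strand the motifs searched were AP-1 (TGANTCA), CRE (TGACGTCA), ETS (CCGGAAGT), TEAD (GGAATG), forkhead (TGTTTAC), HNF1 (GTTAATNAT), HNF4 (CAAAGTCCA), C/EBP (TTGCNNCAA), MEF2 (CTAAAAATA) and grainyhead-like (AACCNGTT). The others were AP-2 (GCCNNNGGC), NRF1 (GCGCATGCG), NF-Y (CCAAT), the GC box (GGGGCGGGG), and GATA factors, whose letters were AGATAA. The E-box of helix-loop-helix factors (CAGCTG), RFX (GTTGCCATG) and NKX2-1 (CACTTGAA) completed the 18. For HNF1, MEF2, NRF1 and RFX these are 9 letters of a longer consensus. Matches of different motifs may share bases. A match is a run of letters and shows no binding.

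The NF-Y letters stood in 27.2% of the 81 promoters and in 38.5% of all 21044 promoters in the table. Promoters covered by kidney and liver only held it in 46.6%, and those covered by heart and lung only in 29.3%. The TEAD core, read by the factors that carry Hippo signalling, was found in 18.5% of kidney-lung promoters against 13.5% of all. Heart-lung promoters held it in 17.1% and kidney-liver promoters in 14.3%. AP-2 letters stood in 21.0% of kidney-lung promoters and 20.1% of all, and the GC box in 16.0% of kidney-lung promoters and 15.5% of all, so these shares were close. The letters of RFX, a family of cilium gene regulators, occurred in 2 kidney-lung promoters (2.47%), those of Ttc30a2, which encodes an intraflagellar transport protein, and Chn1, against 0.694% of all. The HNF1 letters occurred in 1 (1.23%), that of Sfta2, against 0.727% of all. The remaining 12 motifs lay in 0 to 16.0% of the 81 promoters. The median promoter had 9 CpG and 56.7% G and C in the kidney-lung set, and 13 CpG and 56.7% over all promoters.

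Regions over these promoters differed in balance between the organs. At Cpm, which encodes a membrane carboxypeptidase, 86.8 tags in kidney and 93.3 in lung covered a region of 4490 bp, and 90.5% of its bases were held by both organs. At Sorl1, a sorting receptor gene, the values were 73.5 tags in kidney and 61.3 in lung. The integrin gene Itgb6, which belongs to epithelia, had 192 tags in kidney and 38.3 in lung. Lung was the higher organ at Sfta2 (43.4 tags in kidney and 80.1 in lung), at Scnn1b (20.54 in kidney and 72.6 in lung), at Ap1m2 (19.6 in kidney and 36.1 in lung) and at Ttc30a2 (21 in kidney and 28.2 in lung). The deposited tag counts are scaled by the authors to 10000000 tags and carry no error.

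Most kidney-lung regions were short and weak in both organs. Their median length was 1314 bp, with quartiles of 897 and 2145 bp and a range of 501 to 15324 bp, the longest being joined from several called regions. Of the 5276, 4854 held 1 kidney and 1 lung region, and the most complex held 7. Median tag counts were 12.7 in kidney (range 5.73 to 297.5) and 12.4 in lung (range 6.02 to 534.3). Only 626 regions had at least 20 tags in both organs, and 93 had at least 50.

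The kidney and lung regions of a pair overlapped only in part. The bases held by both organs had a median of 494 bp, which is a median of 32.6% of the covered bases. In 1376 kidney-lung regions at least 50% of the covered bases were shared, and in 655 less than 10% were. For those 655 the label of a shared region rests on a short overlap of neighbouring calls.

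Signal per length lay in a narrow range in both organs. The regions were chosen for being called in both lists, and most densities lie close to the recorded thresholds, so the likeness of the organs in density is not a result about them. Median density was 16.9 tags per kb in kidney and 17.3 in lung. The median log2 ratio of kidney over lung density was −0.04, with quartiles of −0.23 and 0.16. By density, 3 regions were more than 2-fold higher in kidney and 2 in lung. By tag count, which follows length, 1074 were more than 2-fold higher in kidney and 946 in lung. Across the 5276 regions, Spearman's rho between kidney and lung was 0.13 for tag counts and 0.02 for density, a description of regions that share their 2 libraries and not a test.

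**Figure D1:**
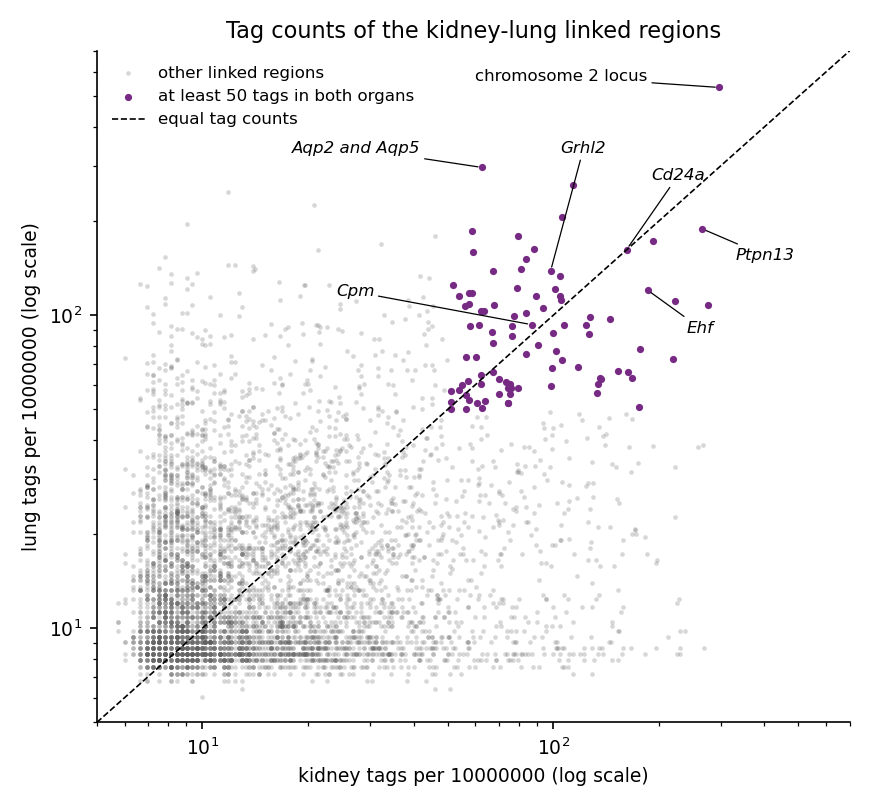
Tag counts of the 5276 kidney-lung regions in kidney (x axis) and lung (y axis), both per 10000000 tags on log axes, with the 93 regions of at least 50 tags in both organs in purple. Most points lie in the corner near 10 tags; Cd24a and Cpm lie near the line of equal counts, whereas the region over Aqp2 and Aqp5 and the chromosome 2 locus lie above it.

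The length limit shaped the upper end of the set. Just inside it lay a region over Spink1, a trypsin inhibitor gene, whose longest called region was 9993 bp (237.2 tags in kidney and 9.78 in lung), and regions over Ncoa7 (9835 bp) and Zfp618 (9825 bp). Just outside lay a region on chromosome 15 with 10001 bp (262.8 tags in kidney and 192.1 in lung) and one over Rtkn2 with 10012 bp (13.3 in kidney and 175.2 in lung). The limit left out 77 linked regions that otherwise met the rule. Among them were those over Col4a3 and Col4a4, which encode basement membrane collagens of the glomerulus and the alveolus. The region over both genes had 1002.1 tags in kidney and 149.27 in lung, and the one over the rest of Col4a3 had 2151.9 in kidney and 79.39 in lung. Long parts of genes that appear below were also left out in this way, with 622 tags in kidney and 339.9 in lung at Ptpn13, 310.1 in kidney and 178.58 in lung at Ehf, and 273 in kidney and 294.4 in lung at Sorl1.

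The regions lay mostly inside genes and away from starts. A protein-coding gene span was overlapped by 70.8% of them (exact 95% binomial interval 69.5 to 72.0%, counting error only), where the background over all 145752 linked regions under the same length limit was 66.7%. The other 5 pairs of organs ranged from 67.2% for heart and lung to 74.0% for heart and liver. Starts were used for 17273 of 21627 protein-coding genes and for none on chromosome 18. Off that chromosome, 247 of 5134 kidney-lung regions lay within 1 kb of a start used. That is 4.81% (4.24 to 5.43%), against a background of 4.98%. The other pairs ranged from 3.32% for heart and liver to 5.84% for kidney and liver, and linked regions of all 4 organs reached 38.6%. At these settings the share at starts was near the background. It was 12.3% of kidney-lung regions against 7.49% of all with the 50% of each list with the highest scores. With at least 10 tags it was 7.21% against 6.50%. A window of 500 bp gave 3.92% against 4.31%, and 2500 bp gave 8.59% against 7.51%. The nearness to the background thus depends on the calls and the window used.

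**Figure D2:**
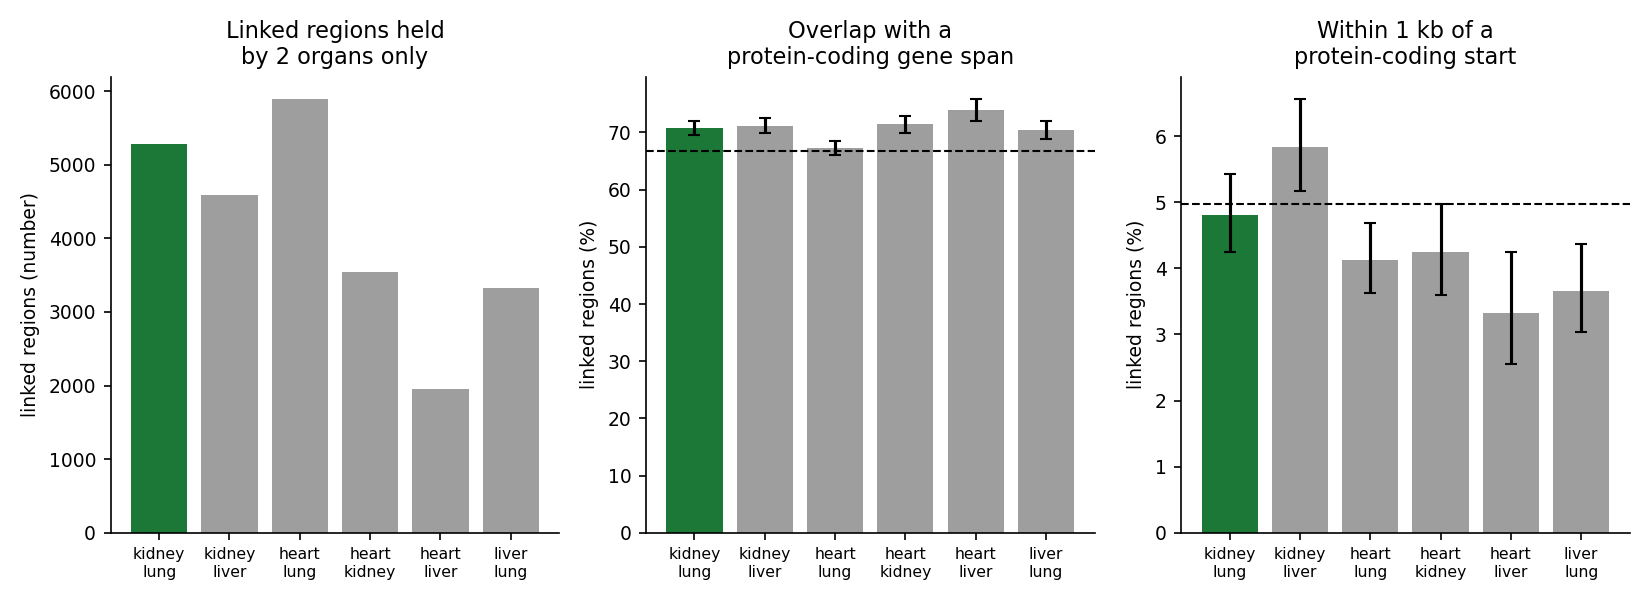
Number of linked regions held by exactly 2 organs (left), percent that overlap a protein-coding gene span (middle) and percent within 1 kb of a protein-coding start (right), with exact 95% binomial intervals as bars and all linked regions under the length limit as dashed lines. Kidney and lung (green) share 5276 regions, fewer than the 5899 of heart and lung, and their 4.81% at starts lies near the dashed line at 4.98%.

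Measured from the middle of the region, the nearest start was a median of 27.6 kb away, against 32.8 kb over all linked regions. The other pairs of organs ranged from 26.3 kb for kidney and liver to 35.2 kb for heart and lung. Distances of 1 to 10 kb were found for 22.3% of kidney-lung regions and 18.2% of all, with 16.3% to 19.8% in the other pairs. Of the set, 2841 regions had their middle in exactly 1 protein-coding gene whose strand was known. Along the gene these were spread evenly, with 26.5%, 23.8%, 25.3% and 24.4% in successive stretches of equal length from the start. Regions farther than 5 kb from any protein-coding gene made up 19.4% of the set and 25.7% of all linked regions. In the other pairs the share ran from 18.6% for heart and liver to 25.4% for heart and lung. The median length was 1314 bp in the set and 736 bp over all linked regions. Long noncoding RNA genes were overlapped by 550 kidney-lung regions (10.4%), against a background of 10.6%. Outside protein-coding genes the number was 324 (6.14%), against 6.81% of all linked regions.

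Of 1005 microRNA hairpins, 4 were overlapped by the set (0.398%), those of Mir144, Mir1953, Mir3081 and Mir7049. No matching share over all linked regions is given here, so this count cannot be called low or high. Mir144 is known for its role in red cell precursors. Its hairpin lay whole inside both the kidney and the lung call of chr11:78071689-78073116, with 18.4 tags in kidney and 18.8 in lung, 260 bp from the protein-coding gene Eral1, and with a heart or liver region within 5 kb. Its mature sequences are shown because it is the only one of the 4 whose hairpin both calls covered in full, with the seed (bases 2 to 8) in capitals.
mmu-miR-144-3p, chr11:78073047-78073066, plus strand: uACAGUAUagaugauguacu
mmu-miR-144-5p, chr11:78073010-78073032, plus strand: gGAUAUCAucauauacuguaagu
The arms have different seeds. RefSeq on GRCm38.p6 gave these sequences.

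The strongest region of the set stood apart from all others and from any gene. It lay at chr2:98662261-98664123, more than 1 Mb (1030590 bp) from the nearest protein-coding gene, with 297.5 tags in kidney and 534.3 in lung. Its density was 160 tags per kb in kidney and 293 in lung, and its caller scores were 146 in kidney and 225 in lung, where the median score of the set was 13 in kidney and 12 in lung. The clonal fold change in the deposited files was 0 in kidney and 0.67 in lung. About 2 kb further along, all 4 lists held a shorter region with 1504.8 tags in kidney, 2760.4 in lung, 4265.1 in heart and 1573.7 in liver. The part of repeated sequence in these values was not tested.

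Among the next regions in rank, 3 lay over the protein-coding genes Ptpn13, Cd24a and Ehf. Within Ptpn13, which encodes a large tyrosine phosphatase with protein-binding domains, a region of 15324 bp had 266.1 tags in kidney and 188.7 in lung. Over Cd24a, the gene of a small, heavily glycosylated surface protein, the values were 161.8 in kidney and 162.1 in lung. Within Ehf, an ETS transcription factor gene of epithelia, they were 185.7 in kidney and 120.3 in lung. Tags per kb were 18.03 in kidney and 18.28 in lung for Ptpn13, 19.6 in kidney and 20.3 in lung for Cd24a, and 21.7 in kidney and 17.3 in lung for Ehf. No heart or liver region lay within 5 kb of any of these 3 regions.

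Several of the leading regions lay outside protein-coding genes. The region at chr17:6859849-6869565, 35151 bp from Rsph3b, ranked above those of Cd24a and Ehf by the lower of its counts, with 192.6 tags in kidney and 173.3 in lung, with 88.8% of its bases shared. A region near Cyp4b1, a cytochrome P450 gene 6592 bp away, had 223 in kidney and 110.98 in lung. Near Otud3 the balance was the other way, with 113.9 in kidney and 259.8 in lung. Near Ank3, an ankyrin gene, it was close to even at 104.58 in kidney and 115.1 in lung. A further 3 of the 12 strongest, within Capn5 (a calpain protease gene), Nln (a peptidase gene) and 9530003J23Rik, had 104 to 106 tags in kidney and 112 to 206 in lung.

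Starts were used for 17273 of the 21627 protein-coding genes, and Cd24a, whose whole span lay inside its region, was not among them. At the starts used, the leading region was that of Mycbpap, with 107.3 tags in kidney and 92.9 in lung. Next was Sipa1l3, with 89.54 in kidney and 115.4 in lung. They were followed by Tmem221 (99.8 in kidney and 88 in lung), Cpm and Lpar3, a receptor gene for lysophosphatidic acid (90.4 in kidney and 80.1 in lung). At Lpar3 99.4% of the bases were held by both organs. Of these 5, Mycbpap and Tmem221 had a heart or liver region within 5 kb and the others had none. Cytip, which encodes a regulator of adhesion in white blood cells, had 67.3 tags in kidney and 81.6 in lung, and Rap1gap 136.2 in kidney and 62.8 in lung. The 10 strongest at starts also held Sorl1, a region over Dock8 at the start of Ndufb4b, and the region of Aqp5 described below.

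Few regions were unequal in density. The most kidney-weighted lay at the start of Glb1, the gene of lysosomal beta-galactosidase, with 28.9 tags per kb in kidney and 12.3 in lung, a log2 ratio of 1.23. It was followed by the start of Ints6l (1.15) and a region 14182 bp from Rb1 (1.07). The most lung-weighted lay within Ryk, a Wnt receptor gene, with 14.1 tags per kb in kidney and 29.4 in lung, a log2 ratio of −1.06. At Ryk the counts behind this were 12.1 tags in kidney and 14.7 in lung, so the ratio rests on few tags. Others of the 6 most kidney-weighted, at Mrln, Fam171a1 and Tax1bp1, had log2 ratios of 0.95 to 0.98, and others of the 6 most lung-weighted, at Ints13, Ccdc120, Mdk and the chromosome 2 locus, had −0.99 to −0.87.

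Long genes gathered many kidney-lung regions. In all, 2133 protein-coding genes (9.86% of 21627) held at least 1 in their span, 339 held at least 3, 107 at least 5 and 22 at least 10. Genes with a kidney-lung region had a median span of 55.5 kb, against 17.3 kb over all genes, so length and number go together. Across the 2133 genes Spearman's rho between number and span was 0.37, a description over genes that share the same lists.

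The longest gene of the 12 with the most regions led this count. Pde4d, whose phosphodiesterase breaks down cyclic AMP, held 35 regions in a span of 1302 kb, with tag counts of 6.93 to 126 in kidney and 7.14 to 144.8 in lung. Mecom, a zinc finger transcription factor gene, held 30, with 8.44 to 76.3 in kidney and 7.14 to 118.1 in lung. Both spans also held regions of other kinds, and the kidney-lung regions were 17.6% of the linked regions in Pde4d and 19.7% in Mecom, the few over the length limit included.

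Gnaq (the G protein subunit that activates phospholipase C), Ptpn13 and Bcas3 held 15 each. Osbpl6 (a lipid-binding protein gene) and Cux1 (a homeodomain factor gene) held 14, and Syne2 (a nuclear envelope protein gene), Mgat5 (an N-glycan branching enzyme gene), Maml2 (a Notch coactivator gene) and App (the amyloid precursor gene) held 12. The 12 genes with the most held 206 kidney-lung regions. The balance differed: 24 of 35 regions had the higher tag count in kidney at Pde4d, 1 of 15 at Gnaq and 8 of 12 at App.

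Coverage of the whole span by all called regions separated 2 patterns. Ptpn13 was covered to 43.4% in kidney, 28.2% in lung, 0.289% in heart and 0.852% in liver, and Osbpl6 to 36.9% in kidney, 28.0% in lung, 0.773% in heart and 0% in liver. At these genes the heart and liver lists were nearly empty along the whole span. Cux1 was covered to 39.7% in kidney, 31.1% in lung, 26.0% in heart and 7.66% in liver, and Gnaq to 22.2% in kidney, 55.2% in lung, 16.1% in heart and 3.63% in liver. There the kidney-lung regions lay between stretches also called in heart, and 12 of the 15 at Gnaq had a heart or liver region within 5 kb, against 1 of the 15 at Ptpn13.

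**Figure D3:**
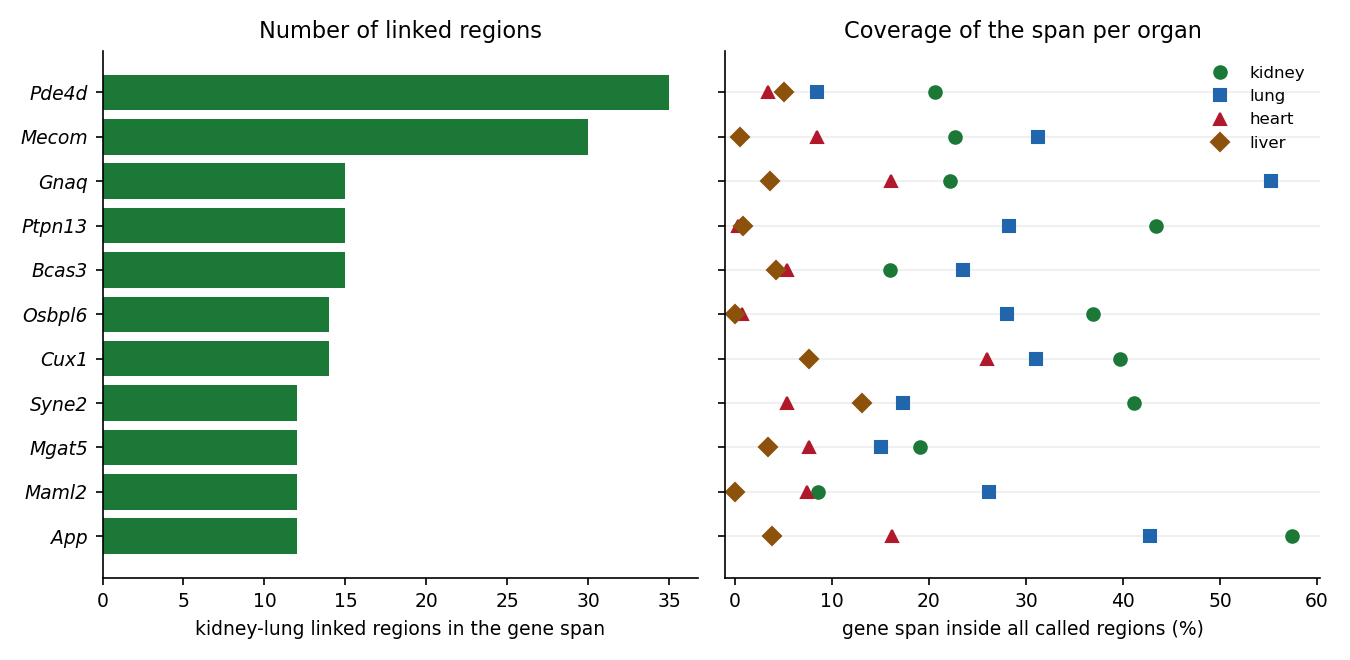
Of the 12 protein-coding genes with the most kidney-lung regions, 11 are drawn, with the number of regions in the span (left) and the percent of the span inside called regions of any length in kidney (circles), lung (squares), heart (triangles) and liver (diamonds, right). Ptpn13 and Osbpl6 have 28.0 to 43.4% coverage in kidney and lung and under 1% in heart and liver, while Cux1 has 26.0% in heart.

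Kidney-lung regions followed each other along the chromosome. Of the 5276, 11.3% were followed by another kidney-lung region as the next linked region, while kidney-lung regions made up 3.46% of linked regions. There were 401 runs of 2, 60 of 3, 18 of 4 and 5 of 5. Runs of 5 lay in Osbpl6, over 26.2 kb with 211.6 tags in kidney and 206.52 in lung, and in Fam117a, Lrrk2 and Bcr. In Lrrk2, a kinase gene known from Parkinson's disease, the run had 231.07 tags in kidney and 150.48 in lung, and in Fam117a 116.08 in kidney and 292.6 in lung. Neighbouring regions of 1 gene are not independent of each other.

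Some short genes lay almost whole inside a kidney-lung region. Cd24a was covered to 77.8% in kidney and 100% in lung, by a single region with even tag counts. For others the cover came from 1 organ. Aqp5, the water channel gene of lung and glands, was covered to 0% in kidney and 100% in lung, while neighbouring Aqp2, the vasopressin-controlled water channel gene of the collecting duct, was covered to 54.2% in kidney and 29.9% in lung. The region that links them, chr15:99582906-99596786, had 62.7 tags over 3877 bp in kidney and 296.6 over 12382 bp in lung. In it 17.1% of the bases were shared. Its kidney call lay between the genes and overlapped neither span, so the kidney cover of Aqp2 came from another kidney region. Spink1 was covered to 100% in kidney and 5.45% in lung, Rhov to 93.3% in kidney and 8.05% in lung, Dok1 to 19.5% in kidney and 100% in lung, and AI467606 to 0% in kidney and 100% in lung. At these genes a long region of 1 organ met a short region of the other and the gene itself was covered mainly in 1 of them.

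Of 16 lists of known genes, the list of epithelial identity and junctions had the highest share with a kidney-lung region. Counting a gene when a kidney-lung region lay in its span or within 5 kb, 12.6% of all protein-coding genes qualified. Of 40 genes of epithelial identity and junctions, 15 did (37.5%), with a median span of 18.7 kb in the list against 17.3 kb for all genes. The count was 3 of 40 (7.5%, against 1.91% of all genes) for regions at or above the heart threshold in both organs, and 8 of 40 (20%, against 3.85%) for regions with no heart or liver region within 5 kb. The same list had 4 genes with a kidney-liver region, 3 with heart-lung, 2 with heart-kidney, 0 with heart-liver and 5 with liver-lung, where the backgrounds were 11.2%, 11.3%, 9.27%, 5.59% and 8.54%. Counting only bases held by both organs inside the span, 12 of 40 qualified, against 9.55% of all genes. The list was chosen with earlier results of these data known, and its count is not independent support for an epithelial theme.

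**Figure D4:**
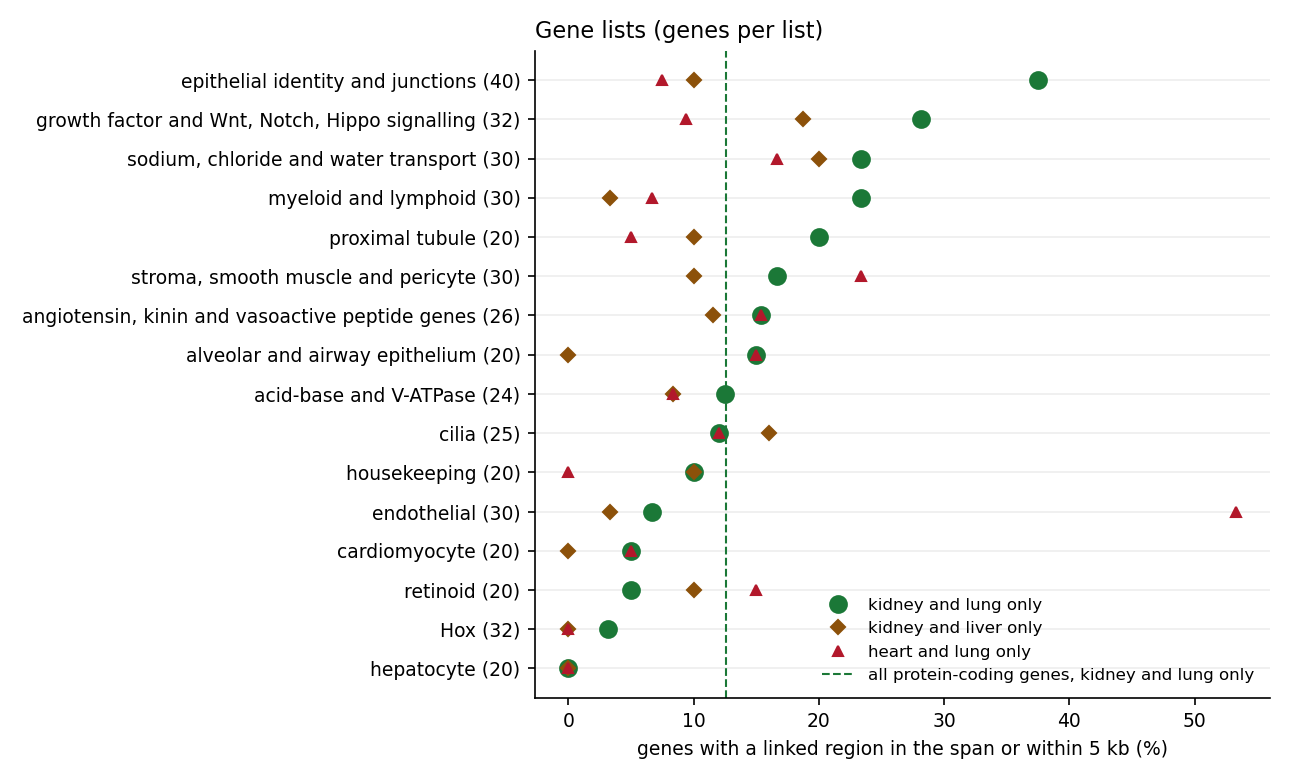
Percent of the genes in each of 16 lists with a linked region in the span or within 5 kb, for regions held by kidney and lung only (circles), kidney and liver only (diamonds) and heart and lung only (triangles), with the number of genes per list in brackets and a dashed line at 12.6% for kidney-lung regions over all protein-coding genes. The epithelial list has the highest kidney-lung share (37.5%) and the endothelial list the highest heart-lung share (53.3%).

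The transcription factors of the epithelial list were Ehf, Grhl2, Elf5, Ovol1 and Ovol2. Ehf held 4 kidney-lung regions, with 22.9, 79, 16.3 and 185.7 tags in kidney and 41, 33.4, 21.8 and 120.3 in lung in order of coordinate, and its span and flanks of 5 kb held no heart or liver region. Grhl2, a grainyhead-like factor gene needed for epithelial barriers, held 4, the strongest over the lower end of its span with 98.24 tags in kidney and 138.4 in lung. The other 3 regions of Grhl2 had 13, 31 and 13 tags in kidney and 9.78, 36.12 and 9.4 in lung, so 2 of its 4 lay near or below the set's medians. Ovol2, a zinc finger repressor gene, had 21.7 in kidney and 11.3 in lung, and Elf5 and Ovol1 had 10.5 to 14.8 tags in both organs, close to the median of the set.

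Surface and junction genes included Marveld3, a tight junction gene, with 98.9 tags in kidney and 67.7 in lung, and St14, the gene of the protease matriptase, with 35.3 in kidney and 56 in lung. Like Ehf and Ovol2, these genes had no heart or liver region within 5 kb. Cdh1, the E-cadherin gene, was covered to 70.4% in kidney, 76.4% in lung, 0% in heart and 40.1% in liver, and so its kidney-lung regions are parts of a gene that the liver list also covers. Cingulin (Cgn) and keratin 8 (Krt8) were likewise covered in liver, to 34.9% and 41.6%.

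Trafficking genes were Myo5b, a vesicle motor gene, with 9 regions of 11.5 to 135 tags in kidney and 9.4 to 45.1 in lung, Ap1m2, an epithelial clathrin adaptor gene, and Rab25. With flanks of 5 kb, these genes held 32, 6 and 5 heart or liver regions, though 0 lay within 5 kb of the 9 at Myo5b. Myo5b was covered to 34.1% in kidney, 11.2% in lung, 7.56% in heart and 10.3% in liver. Ap1m2 was covered to 14.2% in kidney, 12.2% in lung, 13.2% in heart and 0% in liver. Krt7, the keratin 7 gene, had 8.74 tags in kidney and 13.2 in lung. Among the 25 genes without a kidney-lung region were some covered in both organs. Muc1 and Prss8 were covered to 100% in kidney and in lung, Elf3 to 100% in kidney and 81.5% in lung, and Epcam to 80.3% in kidney and 16.7% in lung. Thus the count of 15 does not measure how many epithelial genes carry polymerase in both organs.

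Genes of sodium and water transport held kidney-lung regions in 7 of 30 (23.3%), against 12.6% of all genes, in a list with a median span of 39.4 kb. The same list had 20% with a kidney-liver region, 20% with heart-kidney and 16.7% with heart-lung, against 11.2%, 9.27% and 11.3% of all genes, and 5 of 30 (16.7%) for bases held by both kidney and lung inside the span. The aquaporin genes Aqp2 and Aqp5 were counted from 1 linked region. Its lung call reached both genes, while its kidney call and the shared bases lay between them, in neither span. Of the 7 genes, the epithelial sodium channel genes Scnn1b and Scnn1g and the same aquaporin genes had no heart or liver region within 5 kb. Scnn1g held 2 regions, with 44 and 29.5 tags in kidney and 95.5 and 15.8 in lung, and Scnn1b held 3, with 20.54, 45.24 and 7.84 in kidney and 72.6, 92.1 and 9.4 in lung. Over both starts the lung count was the higher. The same list also held regulators of this channel, the ubiquitin ligase gene Nedd4l with 7 regions, and the kinase genes Wnk1 and Sgk1 with 1 each. These 3 regulator genes lay among 14 to 58 heart and liver regions.

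**Figure D5:**
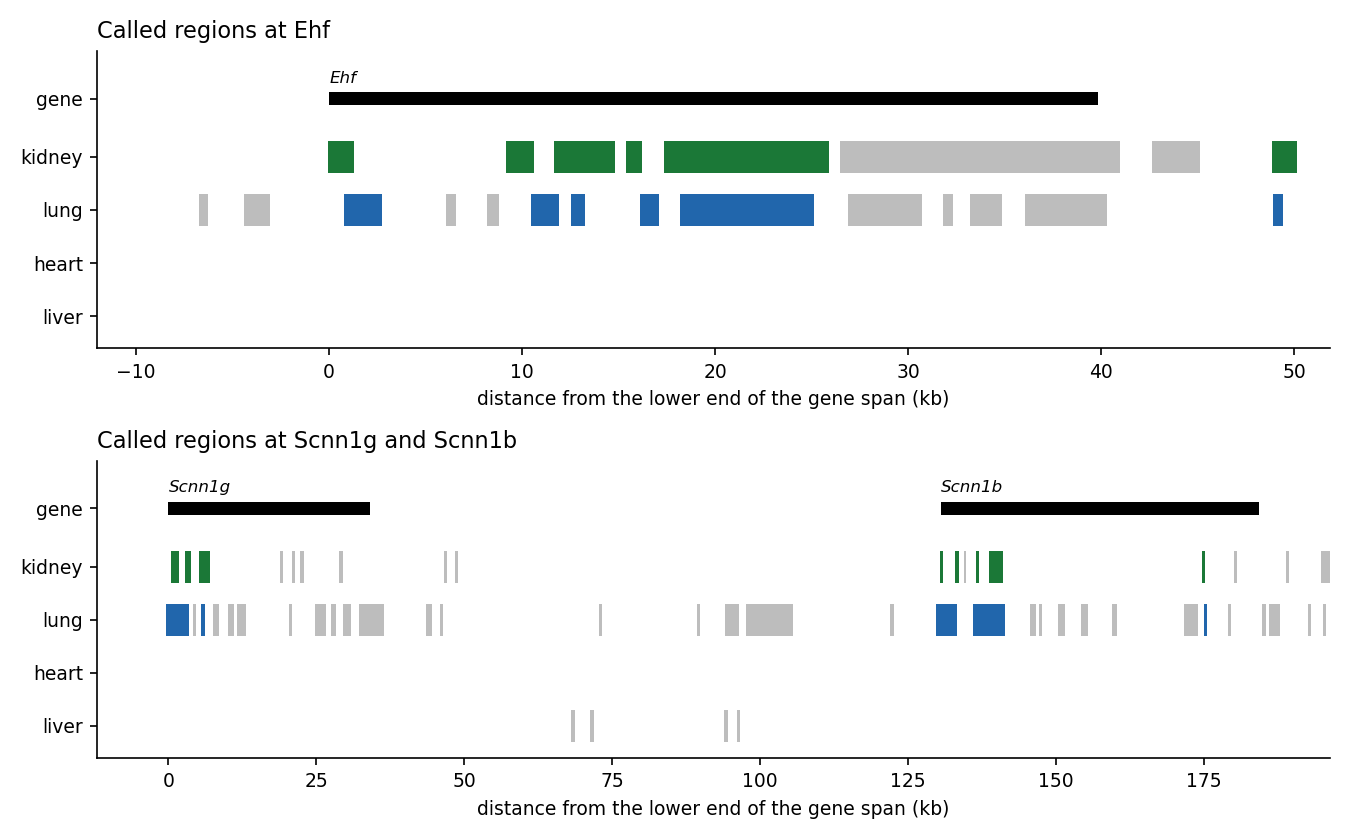
Called regions along Ehf (top) and along Scnn1g and Scnn1b (bottom) in kidney, lung, heart and liver, with distance in kb from the lower end of the gene span; coloured bars belong to kidney-lung regions, grey bars to other linked regions or to regions over the length limit, and black bars are gene spans. No heart or liver region lies in the 3 gene spans, liver regions lie between Scnn1g and Scnn1b, and the kidney and lung calls overlap only in part.

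Growth factor and Wnt, Notch and Hippo signalling genes held kidney-lung regions in 9 of 32 (28.1%), against 12.6% of all genes. The list had a median span of 47.1 kb, against 17.3 kb for all genes. It had 18.8% with a kidney-liver region and 15.6% with liver-lung, against 11.2% and 8.54% of all genes. Heart-lung, heart-kidney and heart-liver gave 9.38%, 9.38% and 3.13%, against 11.3%, 9.27% and 5.59%. For bases held by both kidney and lung inside the span, 6 of 32 (18.8%) qualified, against 9.55%. Fgfr2, an epithelial receptor gene for fibroblast growth factors, held 5, with 7.53 to 13 tags in kidney and 20.3 to 88.4 in lung. Lung had the higher count in all 5. Jag1, a Notch ligand gene, had 38.6 in kidney and 22.6 in lung, and Tead1, a Hippo pathway factor gene, 21.4 in kidney and 37.6 in lung.

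White blood cell genes held regions in 7 of 30 (23.3%), against 12.6% of all genes. For bases held by both organs inside the span the count was 6 of 30 (20%), against 9.55% of all genes. The other pairs of organs ranged from 3.33% to 10% in this list. The antigen presentation genes Cd74 and H2-Aa had 20.54 and 15.7 tags in kidney and 71.4 and 66.6 in lung, and their regulator Ciita 25.9 in kidney and 13.5 in lung. Arhgap15 had 36.5 in kidney and 30.8 in lung. Ptprc, which encodes the common leukocyte antigen CD45, had 9.95 in kidney and 23.3 in lung, with no heart or liver region within 5 kb of the gene.

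Acid-base genes held regions in 3 of 24 (12.5%), near the 12.6% of all genes. At Slc4a5, a bicarbonate transporter gene, the values were 21.14 tags in kidney and 92.9 in lung, at Atp6v1a, a proton pump subunit gene, 63.9 in kidney and 17.3 in lung, and at Atp6v0d2 6.93 in kidney and 106.4 in lung. At Atp6v0d2 the calls shared only 48 bp (0.89% of the covered bases). Its span was covered to 7.71% in kidney, 37.7% in lung, 0% in heart and 16.2% in liver. Genes of angiotensin, kinin and vasoactive peptides held regions in 4 of 26 (15.4%), the same share as for heart-lung regions in this list. Ptgs1, the cyclooxygenase 1 gene, had 21.1 in kidney and 36.5 in lung, Edn1, the endothelin 1 gene, 7.84 in kidney and 21.1 in lung, and Anpep, an aminopeptidase gene, 7.84 in kidney and 10.5 in lung.

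Vessel genes lay below the 12.6% of all genes with a kidney-lung region, and stroma genes above it. Endothelial genes held kidney-lung regions in 2 of 30 (6.67%, Ets1 and Plvap), all with under 20 tags in both organs. A heart-lung region was held by 16 of 30 (53.3%, against 11.3% of all genes). Stroma, smooth muscle and pericyte genes held kidney-lung regions in 5 of 30 (16.7%), in a list with a median span of 37.0 kb. The same list had 23.3% with a heart-lung region. Among the 5 was Fbln5, an elastic fibre gene with 41.3 tags in kidney and 30.42 in lung. Notch3, Cnn1 and Meis1 had 8.14 to 14.2 in kidney and 10.2 to 12.4 in lung.

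Cilium genes held regions in 3 of 25 (12%), near the 12.6% of all genes. Rfx3, the gene of a cilium transcription factor, had 45.2 tags in kidney and 14.7 in lung, Mcidas, a multiciliation gene, 17.8 in kidney and 8.65 in lung, and Ift88 7.53 in kidney and 9.02 in lung. Retinoid genes held regions in 1 of 20 (5%, Crabp2) and Hox genes in 1 of 32 (3.13%), both below the share of all genes. Still, 29 of the 32 Hox genes were at least 50% covered in kidney and 8 in lung.

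Markers of a specialised cell of either organ also appeared, at uneven levels. Proximal tubule genes reached 20% and alveolar and airway genes 15%, against 12.6% of all genes. For bases held by both organs inside the span these shares were 10% and 15%, against 9.55%. Proximal tubule genes held kidney-lung regions in 4 of 20, with 95.2 tags in kidney and 9.78 in lung at Slc5a2, the glucose transporter gene, 30.7 in kidney and 7.14 in lung at Ggt1, and 13.3 in kidney and 7.9 in lung at Slc7a13. Cubn, the gene of an endocytic receptor, held 6 regions with a median of 18.4 in kidney and 9.4 in lung. Alveolar and airway genes held regions in 3 of 20, with 79.3 in kidney and 179.4 in lung at Abca3, a lipid transporter gene, 10.2 in kidney and 60.9 in lung at Rtkn2, and 49.4 in kidney and 25.9 in lung at Etv5. Hepatocyte genes held regions in 0 of 20, cardiomyocyte genes in 1 of 20 (Myom1, with 7.53 tags in kidney and 8.65 in lung) and housekeeping genes in 2 of 20 (Ywhaz and Tfrc).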

How the data were processed

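Pol II chromatin immunoprecipitation of heart, kidney, liver and lung gave 1 deposited list of regions per organ. The submitters' processing notes name Bowtie2 2.2.8, HOMER 4.8 and the mm10 build. Per the file headers, regions were called in windows of 500 bp at a Poisson p threshold of 0.001. The deposited signal of a region (tag count) was normalised by the authors to 10000000 tags. The deposited score comes from the caller, and its clonal fold change is a deposited ratio. How tags matching several places were counted is not stated in any source used here.

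Regions were linked by overlaps of at least 1 bp with Python 3.11.15, numpy 2.4.6 and pandas 2.3.3. Tags and covered bases were summed per organ within a linked region. Density is tags divided by covered kb. Gene spans, promoters and microRNAs came from RefSeq tables of GRCm38.p6. Intervals are exact (Clopper-Pearson), from scipy 1.17.1, and cover counting error only. Linking and overlap code was checked on simulated intervals, where 100% of 2102 linked regions and 120000 overlap calls equalled per-base answers.

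The members, the 16 gene lists (419 genes) and the rules were chosen with earlier results of these data known. Named were the 12 genes with the most kidney-lung regions, the 12 regions with the highest lower tag count, the 10 highest at starts, the 6 genes of at least 2 kb with the largest share of span inside them, the 6 most extreme density ratios each way, and up to 5 genes per list. Some genes that these rules name are not reported here. Other genes, and the promoters shown, were chosen after their values were seen. Promoters were searched for 18 motifs, of which 4 were shortened, and 2 others dropped, after their shares were seen.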

Additional observations from a re-analysis of the deposited data

How the results depend on the processing

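Absence from a list with 1 library and no replicate is the main limit, together with depth. The heart list had the fewest tags and the highest recorded threshold per kb, and most kidney-lung regions lay below it, although heart regions below it were listed too.

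The set held 3035 regions with the 50% of each list with the highest score, 2911 with at least 10 tags per region, 549 at or above the heart threshold in both organs and 1779 with no heart or liver region within 5 kb. The last 2 settings, and the one restricted to bases held by both organs, were chosen after seeing the data. Overlap of a gene span was 73.7%, 72.2%, 72.7% and 68.8% under these 4 settings, and 69.3% for bases held by both organs. The share within 1 kb of a start was 12.3% with the highest scores, 7.21% with at least 10 tags, 6.58% with no heart or liver region within 5 kb and 3.58% for bases held by both organs. It was 3.92% with a window of 500 bp, against 4.31% of all linked regions, and 8.59% with 2500 bp, against 7.51%. For the 6.58% and the 3.58% no matching share over all linked regions is given here. Genes with a region numbered 1413 with at least 10 tags, 340 at the heart threshold and 728 with no heart or liver region within 5 kb. Genes with at least 3 numbered 129 with the highest scores, 147 with at least 10 tags, 13 at the heart threshold and 108 with no heart or liver region within 5 kb. The median log2 ratio of kidney over lung density was 0.0144 at the heart threshold. Epithelial genes with a region numbered 3 of 40 at the heart threshold (7.5%, against 1.91% of all genes) and 8 of 40 with no heart or liver region within 5 kb (20%, against 3.85%). For settings other than the construction of a smaller set the cause was not tested. Among the other 33 values were 2722 genes with a region and 416 with at least 3 with the span widened by 5 kb, 1718 genes with a region with the highest scores, and 12 of 40 epithelial genes for bases held by both organs.

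No paired analysis was possible because each organ has 1 list. Motif shares in the regions themselves were planned and were not run, since no genome was used here.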

Other observations

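Of the 2133 protein-coding genes with a kidney-lung region, 127 had no heart or liver region in the span or within 5 kb, or 5.95%. Beside the epithelial, channel and aquaporin genes already described, they included Thbs1, which encodes the matrix protein thrombospondin 1, with 106.1 tags in kidney and 71.8 in lung. Sema3c, a guidance ligand gene, had 58.8 in kidney and 118.1 in lung, and Myb, a transcription factor gene of blood progenitors, 42.54 in kidney and 114.7 in lung. Slc15a2, a peptide transporter gene, held 3 regions with 70.9, 9.34 and 229.7 tags in kidney and 37.18, 10.9 and 9.78 in lung. Trpm6, a magnesium channel gene of the distal tubule, held 3 with a sum of 63.54 tags in kidney and 183.6 in lung. Adora2b, an adenosine receptor gene, had 31.1 in kidney and 32.3 in lung. These genes were chosen after their values were seen. No matching share over all protein-coding genes is given for the 5.95%, which is a description.

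By chromosome, the share of linked regions that were kidney-lung regions ran between 2.28% on X and 4.61% on chromosome 11.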
